A study of Mus musculus with 220 samples.

Results

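Among the Ath-HMDP mice, 2 of 220 had a mother of the strain KK/HlJ, and their livers were set against those of the other classical inbred strains. KK/HlJ mice descend from a Japanese stock that becomes obese, hyperinsulinemic and glucose intolerant, and the strain serves as a polygenic model of type 2 diabetes. The 2 mice were chosen by their strain label alone, and no measured value entered the choice. The mothers of the comparison mice came from 28 other classical strains (63 mice), that is, strains whose names do not mark them as recombinant inbred. Of these 28 strains, 2 had 1 mouse, 17 had 2 mice and 9 had 3 mice. All mice were female and F1, and their C57BL/6J fathers brought in 2 human transgenes, ApoE-Leiden and CETP. They were switched at 8 weeks of age to a Western diet, stayed on it for 16 weeks and gave their livers at 24 weeks of age. Every mouse therefore held 1 C57BL/6J genome, both transgenes and 1 genome of its mother's strain, so that a KK/HlJ allele was measured only beside a C57BL/6J allele. The group called C57BL/6J below had mothers of that strain and so differed from the others by carrying no second genome. In the names used here, a KK/HlJ mouse is such an F1 mouse and not a mouse of the inbred strain.

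The liver clears glucose and makes it under the control of insulin, packages fat into lipoproteins, turns cholesterol into bile acids and detoxifies foreign compounds. Many of its cytochrome P450 and sulfotransferase genes are expressed at different levels in males and females, a difference that in mice follows the pattern of growth hormone release and androgens. Stress genes for glutathione conjugation and NADPH supply respond to the transcription factor NRF2. These gene groups are described in turn.

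Values are log2 RMA signals from 1 array per mouse, so that a difference of 1 is a factor of 2 in signal. The 3 Y-linked genes Eif2s3y, Kdm5d and Uty, which a female lacks, lay between 2.22 and 3.34 in all 220 mice and show where the scale ends. In the KK/HlJ mice these genes lay between 2.37 and 2.73, and Xist, which is transcribed from the inactive X chromosome, between 11.41 and 11.44. Over all mice Xist ran to 11.75, and it was 11.16 or more except in 1 BXD50/RwwJ mouse at 5.58, which enters the fit only through its spread. Over the 6605 probe sets for which at least 0.5 of the variance in mice of other strains lay between strains, the KK/HlJ mice correlated at r = 0.83 with each other. Of the 219 other mice, each KK/HlJ mouse was most like its strain mate, and the next highest r was 0.39 for mouse 1 and 0.47 for mouse 2. Over the same probe sets the strain mean of KK/HlJ was most like that of C3H/HeJ (r = 0.44 across probe sets) and least like that of SWR/J (r = -0.44). The defining hepatocyte transcripts were at the top of the scale, with albumin (Alb) at 13.47 and 13.28 in the KK/HlJ mice, against strain means of 13.42 to 13.63. The labels give no litter, cage, collection day or array batch, and p-values measure the spread between the mice of a strain, whatever they shared.

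The main question was which liver genes set KK/HlJ apart from the average classical strain. Of 45037 probe sets, 1649 (3.66%) differed between KK/HlJ and the mean of the 28 other strain means at an adjusted p under 0.05 (limma), 985 higher and 664 lower. With 1 probe set per gene, 848 of 17097 genes (4.96%) differed, 487 higher (2.85%) and 361 lower (2.11%). The median size of a called difference was 0.50, and 19 called genes differed by more than 2. When each of the 29 classical strains was set against the mean of the others in the same fit, KK/HlJ was number 14 by the count of called probe sets, and number 6 of the 18 strains with 2 mice, between SWR/J with 6448 and NON/ShiLtJ with 182. This test takes its spread from mice of 1 strain and so answers whether the KK/HlJ mean differs from an average, not whether it is unusual among strains. For the second question, the place of KK/HlJ in the range of the strains was used. Both KK/HlJ mice lay above all 28 strain means for 279 genes (1.63%) and below all of them for 249 (1.46%), and 188 and 121 of these were also called. The same counts are not given for other strains, so that these shares alone do not show whether KK/HlJ is unusual. In a fit to the 29 strain means, whose spread is between strains, 37 probe sets were called, 24 higher and 13 lower. With 1 KK/HlJ mouse, the main comparison called 218 probe sets without mouse 1 and 706 without mouse 2. Of the 848 called genes, 112 kept their call without mouse 1, 303 without mouse 2 and 74 in both cases.

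The largest difference was in Cyp4a12a, a male-biased P450 that hydroxylates arachidonic acid. Its signal was 9.80 and 9.50 in the KK/HlJ mice, against strain means from 2.93 in C57L/J to 6.89 in NON/ShiLtJ with a median of 3.75. Both KK/HlJ mice stood above every one of the 63 comparison mice, the highest of which was at 7.68. The difference from the mean of the other strains was 5.44 ± 0.59 (SE), a factor of 43.3 (adjusted p = 1.54e-12, and 0.0486 in the fit to strain means). Akr1c18, a 20-alpha-hydroxysteroid dehydrogenase that inactivates progesterone, was at 8.94 and 8.70 in the KK/HlJ mice, against a median strain mean of 3.53 and a highest of 8.41 in C57L/J. LP/J (7.85), NZW/LacJ (7.78) and LG/J (7.05) also had high means, while the remaining strains lay at 4.52 or below, so that KK/HlJ shared its high level with 4 strains. The KK/HlJ difference in Akr1c18 was 4.71 ± 0.19 (adjusted p = 1.49e-45), but in the fit to strain means it was not called (0.611). Scara5, a scavenger receptor that binds ferritin, was at 7.27 and 6.84 in the KK/HlJ mice, against strain means of 2.40 to 5.73, a difference of 3.74 ± 0.38 in 1 of its 2 probe sets. Scara5 was not called in the fit to strain means. Tinag, a basement membrane glycoprotein, was at 6.05 and 5.97, against strain means of 2.69 to 4.62, and rose by 2.76 ± 0.25, with a call in both fits (adjusted p = 8.58e-17, and 0.0116 in the fit to strain means).

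The other large rises with both mice above all strain means were in Cbr3 (2.66), Cyp2d9 (2.47), the matrix metalloprotease Mmp7 (2.31), the actin regulator Cap2 (2.08), Wfdc18 (1.99), the myomesin Myom3 (1.89), the calmodulin-like Calml4 (1.80) and the terminal complement component C6 (1.65). Cap2 had a pair of probe sets and both were called, at 2.08 and 1.70. Apart from Myom3, none of these 8 genes was called in the fit to strain means. Myom3 was at 4.59 and 5.11 in the KK/HlJ mice, against a highest strain mean of 4.50, and was also called in the fit to strain means (0.00468). The calls of these 8 genes held without either KK/HlJ mouse, except that Cbr3 was lost without mouse 1 (adjusted p = 0.241).

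**Figure D1:**
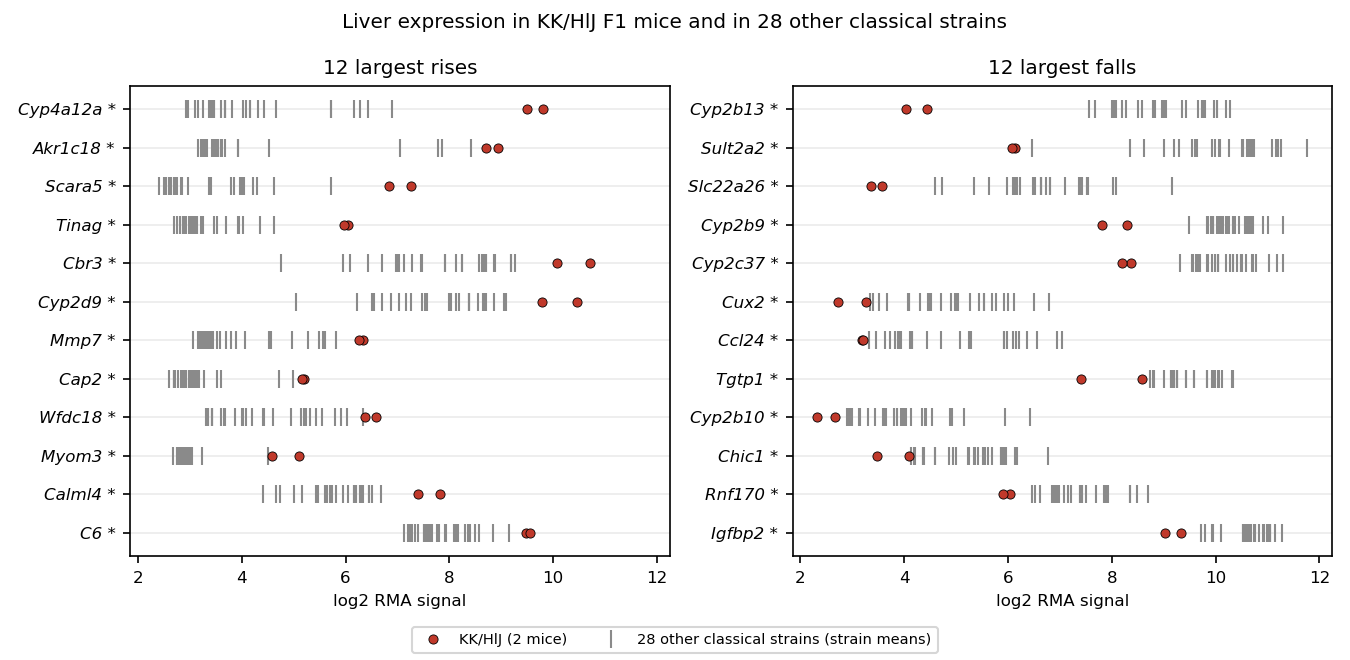
Log2 RMA signal of the 12 genes that rose most and the 12 that fell most in KK/HlJ among called genes whose KK/HlJ mice both lay beyond all other classical strains. Red points are the 2 KK/HlJ mice, gray ticks are the means of 28 other strains, and Cyp4a12a at 9.80 and 9.50 and Cyp2b13 at 4.44 and 4.04 stand furthest from the ticks.

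The largest fall was in Cyp2b13, a female-biased P450. Its signal was 4.44 and 4.04 in the KK/HlJ mice, against strain means of 7.57 in BALB/cJ to 10.28 in NOD/ShiLtJ. No comparison mouse was below 7.03. The difference was -4.78 ± 0.43, a factor of 27.5 lower in KK/HlJ (adjusted p = 6.35e-17, and 0.00523 in the fit to strain means). Its neighbor in the same P450 cluster, Cyp2b9, which is also female-biased, was at 8.29 and 7.82, against strain means of 9.50 to 11.30, and fell by 2.26 ± 0.22 (3.14e-15, and 0.00934 in the fit to strain means). Sult2a2, a hydroxysteroid sulfotransferase, was at 6.14 and 6.08 in the KK/HlJ mice, against a median strain mean of 10.39. CBA/J came next at 6.467 and C3H/HeJ at 8.35, so that CBA/J shared the low level, and 1 comparison mouse was at 5.36. Slc22a26, of the organic anion transporter family, was at 3.36 and 3.57, against strain means of 4.59 to 9.16, and both of its probe sets were called lower (-3.24 and -2.93). Neither Sult2a2 nor Slc22a26 was called in the fit to strain means.

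The falls that followed were in Cyp2c37 (-1.95), the transcription factor Cux2 (-1.94), the chemokine Ccl24 (-1.74), the interferon-induced GTPase Tgtp1 (-1.52), Cyp2b10 (-1.52), Chic1 (-1.47), the ubiquitin ligase Rnf170 (-1.46) and the insulin-like growth factor binding protein Igfbp2 (-1.45). Rnf170 fell in 2 of 3 probe sets, and the other differed by 0.03. The calls of Cux2 (adjusted p = 0.0419) and Cyp2b10 (0.0426) were near the threshold, and both were lost without either KK/HlJ mouse. Tgtp1 was lost without either mouse too (0.866 and 0.0592), and Chic1 without mouse 2 (0.19). Cyp2b10 fell in 1 of its 3 probe sets and Cux2 in 1 of 2. The KK/HlJ values of Ccl24 (3.19 and 3.20), Cyp2b10 (2.66 and 2.33) and Cux2 (2.73 and 3.27) were near the bottom of the scale. The lowest means among the other strains were 3.32, 2.89 and 3.34, so that such low levels were not particular to KK/HlJ. None of the falls in this paragraph was called in the fit to strain means. Near-identical members of the Cyp2b, Cyp2c, Cyp2d, Cyp4a, Akr1c, Gstm and Sult2a families can share array probes, and which member carried a signal is uncertain.

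The sex-biased genes stood at both ends of the list. Of 17 measured female-biased liver genes, 9 fell in KK/HlJ and 0 rose, against 2.11% lower and 2.85% higher over all genes. This list and those below were drawn up with earlier results of these data known, so that the counts describe and do not test. All 17 differences were below 0, with a median of -1.74 beside -0.00 over all genes. The median of the same 17 genes ran from -0.82 in C57BLKS/J to 1.28 in SWR/J over the other 28 strains, so that KK/HlJ lay below each of them. It was -1.86 in mouse 1 and -1.67 in mouse 2. Besides Cyp2b13, Sult2a2, Cyp2b9, Cux2 and Cyp2b10, the genes called lower were Acot3, a peroxisomal thioesterase (-2.61), Hao2, a hydroxyacid oxidase (-1.93), the steroid hydroxylase Cyp17a1 (-1.74) and Trim24 (-0.75). Acot3 differed widely between the KK/HlJ mice, at 4.67 and 6.43, against a lowest strain mean of 5.69, and its call was lost without mouse 1 (adjusted p = 0.662). The calls of Cyp17a1 and Trim24 were also lost without mouse 1 (0.763 and 0.47), that of Cyp17a1 without mouse 2 as well (0.0577), and that of Hao2 without mouse 2 (0.14). Sult3a1, at 2.21 and 2.63, and Sult1e1, at 2.60 and 2.77, were near the bottom of the scale in KK/HlJ but did not pass the test (0.0569 and 0.101). Cyp3a41a was at 8.96 and 10.79 and Gstt3 at 7.64 and 7.57, within the range of the other strains. With 1 KK/HlJ mouse, 4 of the genes were called lower without mouse 1 and 5 without mouse 2, and 2 were called in the fit to strain means (7 at an unadjusted p under 0.05).

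Of 17 measured male-biased genes, 5 rose and 0 fell (29.4% called, against 4.96% over all genes), with a median difference of 0.24. The 5 were Cyp4a12a, Cyp2d9, a testosterone hydroxylase, C6, the glutathione transferase Gstp1, which was also counted with the NRF2 genes, and the organic anion transporter Slco1a1. Cyp2d9 was at 10.45 and 9.78 in the KK/HlJ mice, against strain means of 5.04 to 9.09. Slco1a1 was at 7.50 and 7.97, which put KK/HlJ at number 9 of 29 strains, below SWR/J at 10.49 and far above the median strain at 3.79. The calls of Slco1a1 (0.0661) and Gstp1 (0.466) were lost without mouse 1, and that of Slco1a1 also without mouse 2 (0.107). The rise was not shared by the list as a whole. The steroid dehydrogenase Hsd3b5 was at 2.73 and 2.58 in the KK/HlJ mice, at the bottom of the scale, Elovl3 at 4.14 and 3.67, and Moxd1 at 2.55 and 2.66, and these differed from the mean of the other strains by -0.23, -0.42 and 0.04. The repressor Bcl6, which is itself male-biased, differed by 0.68 ± 0.37 (adjusted p = 0.419).

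**Figure D2:**
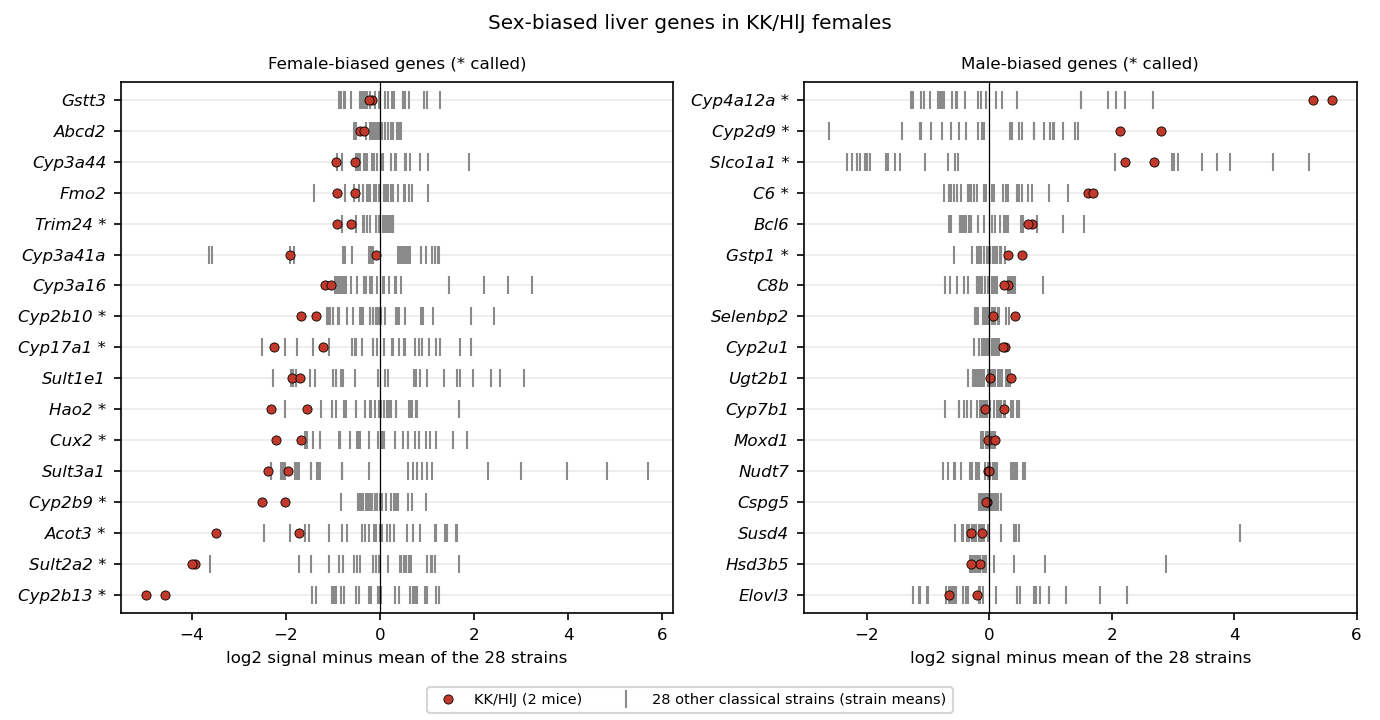
Signal of each measured female-biased and male-biased liver gene minus the mean of the 28 other classical strains, on a log2 scale, with red points for the 2 KK/HlJ mice and gray ticks for the other strain means. An asterisk marks the 9 female-biased and 5 male-biased genes that were called, and all 17 female-biased genes have a KK/HlJ mean left of 0.

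The genes of growth hormone signaling were looked at after these values had been seen. Igfals, which holds IGF-1 in the circulation, was at 6.60 and 7.14 in KK/HlJ, against strain means of 6.69 to 8.70, and fell by 1.19 ± 0.30 (adjusted p = 0.00749, but 0.62 without mouse 1). The growth hormone receptor Ghr fell in 2 of its 3 probe sets (-0.57 and -0.71), while the brightest differed by -0.27 (0.0622). The feedback genes Cish (-1.10, 0.0543) and Socs2 (-0.94, 0.22) and the transducers Stat5a (-0.07) and Stat5b (-0.32) did not pass the test, and Igf1 itself, at 11.30 and 11.41, differed by -0.09.

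Genes of glutathione metabolism and the NRF2 response were high in KK/HlJ. Of 26 measured, 15 rose, 1 fell and 10 did not pass the test, against 2.85% higher over all genes. For 13 of the 15, both KK/HlJ mice lay above all 28 strain means. The median difference over the list was 0.53, the highest of the 29 strains, with the next at 0.24 in C3H/HeJ and the lowest at -0.34 in SWR/J. The carbonyl reductase Cbr3 was at 10.70 and 10.08 in the KK/HlJ mice, against strain means of 4.76 to 9.26. Sulfiredoxin (Srxn1), which repairs oxidized peroxiredoxins, was at 10.33 and 9.85, against 7.05 to 9.56, and all 4 of its probe sets were called higher. The quinone reductase Nqo1 was at 8.27 and 8.25, against 5.93 to 7.91, a difference of 1.11 ± 0.24 (adjusted p = 0.00121). These are defining targets of NRF2.

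Of the enzymes that supply NADPH to this system, Pgd of the pentose phosphate pathway rose by 0.97 and Taldo1 by 0.41. Of those that recycle thiols, thioredoxin reductase (Txnrd1) rose by 0.56 and glutathione reductase (Gsr) by 0.65. The glutathione peroxidase Gpx2 rose by 0.93, while Gpx1, at 12.49 and 12.56, was the gene that fell (-0.21). Among all 7 measured Gstm genes, 5 rose, against 2.85% called higher over all genes. The rises were 0.51 (Gstm1), 0.93 (Gstm2), 1.15 (Gstm3), 0.93 (Gstm4) and 0.67 (Gstm6), while Gstm5 (0.26) and Gstm7 (0.19) did not pass the test. None of the Gstm genes was called in the fit to strain means. Gstp3, outside the list, was at 11.18 and 10.90, against a median strain mean of 7.81, and ranked number 4 of 29.

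Not every gene linked to NRF2 was called higher, and the activity of NRF2 was not measured. NRF2 itself (Nfe2l2) was at 9.76 and 9.81 in the KK/HlJ mice, against strain means of 9.51 to 10.23, the heme oxygenase Hmox1 at 6.39 and 6.27, against 5.63 to 7.81, and the glutamate-cysteine ligase subunit Gclm differed by 0.09 within strain means of 10.56 to 11.09. The catalytic subunit Gclc, which makes glutathione together with Gclm, was at 11.98 and 11.62, a difference of 0.40 that did not pass the test (0.0662). Of 4 related genes added after their values had been seen, Cbr1 (1.00) and Ugdh (0.80) rose and Abcc4 (1.16, 0.0567) and Osgin1 (-0.22) did not pass the test. The count rested on both animals, since 0 of the 26 genes were called higher without mouse 1 and 9 without mouse 2, and 0 were called in the fit to strain means. At an unadjusted p under 0.05 in limma, 21 of the 26 differed with both mice, 18 without mouse 1 and 14 in the fit to strain means, or 80.8%, 69.2% and 53.8%. The same shares over all genes were 17.1%, 8.36% and 5.42%. The signal of mouse 1 was the higher of the pair for Cbr3, Srxn1 and Gstm3, and the list median was 0.62 in mouse 1 and 0.45 in mouse 2.

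**Figure D3:**
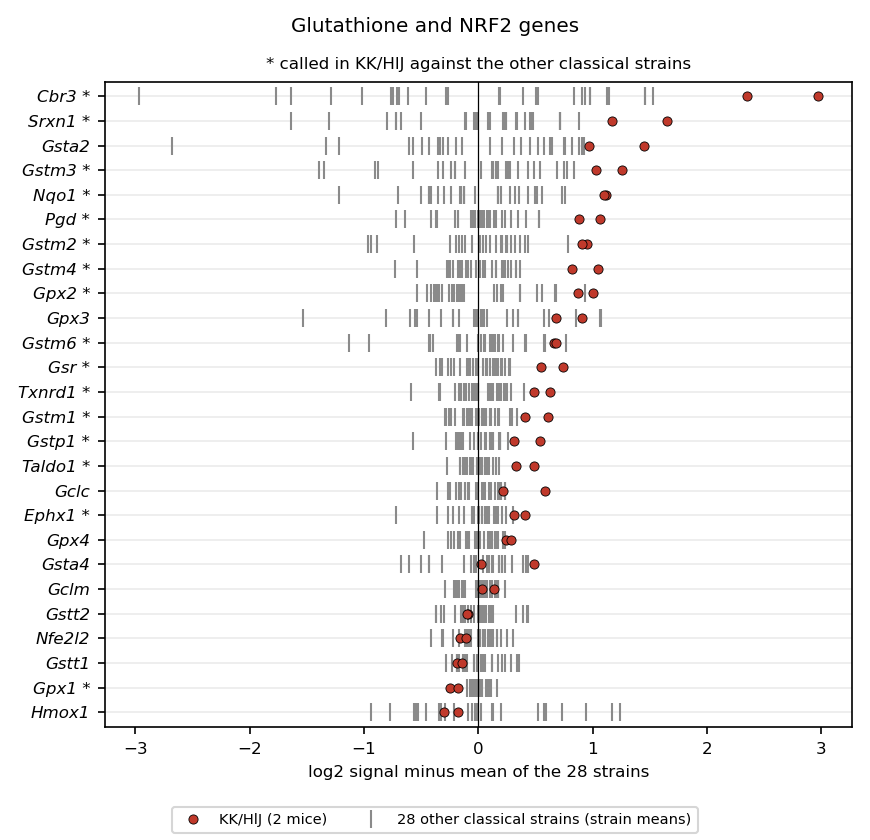
Signal of the 26 measured glutathione and NRF2 genes minus the mean of the 28 other classical strains, on a log2 scale, with red points for the 2 KK/HlJ mice and gray ticks for the other strain means. The 15 genes called higher and Gpx1, called lower, carry an asterisk, and Cbr3 lies furthest to the right.

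The core of the antioxidant response element through which NRF2 acts is TGACNNNGC. It was searched on both strands from 250 bases before to 50 bases after each RefSeq gene start of GRCm38.p6, where N stands for any base. These sequences are of the C57BL/6J reference, the haplotype that every father gave, and not of KK/HlJ. The letters were found for 3 of the 14 called genes that had a sequence (21.4%), and for 14.0% of all 27025 genes. Counted by promoter, they were found in 3 of 21 of these genes (14.3%), and in 12.4% of all 32851. The 3 genes are shown because they rose together, with the match in capitals. In Txnrd1 (chr10:82858956-82859205, plus strand) the match starts at base -92 from the gene start and lies on the opposite strand. In Srxn1 (chr2:152105542-152105571, plus strand, match on the opposite strand) and Pgd (chr4:149166060-149166089, minus strand, match on the strand of the gene) it lies just after the start, at base 29 and base 4.
Txnrd1: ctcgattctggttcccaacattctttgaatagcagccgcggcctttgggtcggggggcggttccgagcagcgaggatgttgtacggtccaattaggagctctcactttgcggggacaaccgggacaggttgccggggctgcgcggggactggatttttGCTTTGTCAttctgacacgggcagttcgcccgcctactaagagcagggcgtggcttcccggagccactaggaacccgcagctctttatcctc
Srxn1: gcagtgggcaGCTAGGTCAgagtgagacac
Pgd: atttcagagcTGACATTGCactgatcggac

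Given the diabetic background of the strain, the genes of insulin action were examined next. Of 23 measured genes of insulin signaling, 0 rose and 1 fell, with a median difference of 0.06, so that the share of called genes (4.35%) was near that over all genes (4.96%). The gene that fell was Igfbp2, at 9.34 and 9.03 in the KK/HlJ mice, against strain means of 9.72 to 11.28. The insulin receptor Insr was at 9.50 and 9.57, against strain means of 9.40 to 9.95, and its substrate Irs1 at 8.20 and 8.26, against 7.75 to 9.07. The kinase Akt2 (7.44 and 7.45) and the insulin-repressed Igfbp1 (10.60 and 11.39) also lay inside the range of the strains. The transcription factor Foxo1 (2.99 and 2.72) and the gluconeogenic Pck1 (2.67 and 2.98) had probe sets near the bottom of the scale in every strain, so that no difference could be seen with them. Glucose-6-phosphatase (G6pc) was at 9.72 and 10.03, against a mean of 9.88, and the carbohydrate sensor Mlxipl at 10.28 and 10.34, against 10.50. Of 13 gluconeogenic genes, Pck2, the mitochondrial isoenzyme, was the one that rose (0.49, adjusted p = 0.0174, but 0.375 without mouse 1 and 0.232 without mouse 2), and 0 of 18 genes of glycolysis and glycogen were called (3 at an unadjusted p under 0.05 in limma). The share of gluconeogenic genes called was 7.69%. For glycolysis and glycogen, the share at an unadjusted p under 0.05 in limma was 16.7%, near the 17.1% over all genes. Irs2, Srebf1 and Ppargc1a had no probe set with a single gene symbol and were not analysed here.

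The leptin receptor Lepr was low. Its brightest probe set was at 4.78 and 5.04 in the KK/HlJ mice, against strain means of 4.54 in LG/J to 8.23 in C57BL/6J with a median of 6.87, a difference of -1.74 ± 0.38 (adjusted p = 0.00121). KK/HlJ was thus number 28 of 29 strains, and 3 of the 4 probe sets fell. Lepr was the 1 called gene of 21 hepatokines and endocrine receptors (4.76%, against 4.96% over all genes), whose median was -0.10. The call was lost without mouse 1 (0.235) and kept without mouse 2 (0.0439). The fasting hormone Fgf21 was at 6.43 and 6.97, against strain means of 4.77 to 7.37, a difference of 0.80 ± 0.36 that did not pass the test (0.263).

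The medians of the lipid synthesis lists stood above the average strain and inside the range of the strains. Of 21 genes of fatty acid and triglyceride synthesis, 1 rose (4.76% called, against 4.96% over all genes), the acyltransferase Mogat1 (6.74 and 6.79, against a mean of 5.30). The list median was 0.34, number 6 of 29 strains, and Fasn (0.71), Thrsp (1.02) and Acacb (0.71) did not pass the test. Of 19 cholesterol synthesis genes, the sterol reductase Dhcr7 (1.08) and the mevalonate kinase Mvk (0.59) rose, and Mvk did so in 1 of 2 probe sets (10.5% called). Both Dhcr7 values, 8.83 and 8.69, lay above the highest strain mean of 8.57. The calls of Mogat1 (0.367 and 0.212), Dhcr7 (0.452 and 0.14) and Mvk (0.447 and 0.0532) were lost without mouse 1 and without mouse 2. The median of this list was 0.55, number 5 of 29, between 0.71 in BTBR T<+> tf/J and -0.94 in C58/J. It differed between the KK/HlJ mice, at 0.34 in mouse 1 and 0.70 in mouse 2.

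Lipid oxidation, lipoprotein and bile acid genes held more falls than rises. The fatty acid hydroxylase Cyp4a10 fell by 0.88 and the acyl-CoA dehydrogenase Acadl by 0.27, as 2 of 20 genes of fatty acid oxidation and ketogenesis. Of 22 lipoprotein and sterol efflux genes, 3 fell and 0 rose (13.6% called). They were Lcat, which esterifies cholesterol on HDL (10.25 and 10.31, against strain means of 10.44 to 11.23), the HDL receptor Scarb1 (-0.52) and Apoa5 (-0.32). Of 18 lipid droplet genes, Fitm1 rose (1.24) and Vldlr (-1.07) and Hsd17b11 (-0.28) fell (16.7% called). Of 21 genes of bile acid synthesis and transport, 6 fell and 2 rose (38.1% called, against 4.96% over all genes). The uptake transporter Slco1a4 was at 8.61 and 8.35 in the KK/HlJ mice, against a mean of 9.64, and fell by 1.15. Akr1d1, which reduces the steroid ring (-0.73), the repressor Nr0b2 (-0.67), the racemase Amacr (-0.48), the bile acid ligase Slc27a5 (-0.44) and the canalicular export pump Abcb11 (-0.37) fell too. The 2 that rose were Slco1a1 and the export pump Abcc2 (0.46). Of these 8 calls, those of Slco1a4 and Amacr held without either mouse, those of Abcb11 (0.92) and Abcc2 (0.834) were lost without mouse 1, and the other 4 were lost in both cases. Of the oxidation, lipoprotein and lipid droplet genes named here, Lcat kept its call in both cases, Cyp4a10 lost it without mouse 1 (0.341), and the other 6 lost it without either mouse. The rate-limiting Cyp7a1 was at 9.21 and 9.63, against a mean of 9.56.

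Foreign-compound P450 genes went both ways. Of 31 genes of xenobiotic receptors and P450, 3 rose and 4 fell, a share called of 22.6%, against 4.96% over all genes. Cyp1a1, the classical target of the aryl hydrocarbon receptor, was called higher (3.31), but its values were 9.19 in mouse 1 and 4.73 in mouse 2, against strain means of 3.03 to 6.65. Without mouse 1 its adjusted p was 0.924, so that the call rested on 1 animal, and a comparison mouse reached 11.28. Cyp1b1 was high in both mice, at 7.86 and 7.74, against 4.71 to 7.46. Cyp2c37 and Cyp2b10, which the receptor CAR controls, were among the falls, Cyp2b10 in 1 of 3 probe sets. Of 8 measured Cyp2c genes, 2 fell and 6 did not pass the test. Among the 6 were Cyp2c29 (-0.34, limma adjusted p = 0.226) and Cyp2c55 (0.18, 0.898). Whether the activity of CAR differed was not tested.

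Genes of the interferon response were below the average strain. Of 38 measured, 6 fell and 1 rose (18.4% called, against 4.96% over all genes), 37 of 38 differences were below 0, and the median was -0.32 (number 27 of 29, with the lowest at -0.67 in SWR/J). Tgtp1 was at 7.41 and 8.59, against a lowest strain mean of 8.74, and Iigp1, another interferon-induced GTPase, at 10.74 and 11.19, against 11.34 to 11.80. Iigp1 was called in the fit to strain means as well (0.0221). Ifi203 (-1.27), Gbp2 (-0.99), Rtp4 (-0.54) and Irf9 (-0.48) fell too. In these GTPase genes mouse 1 was lower than mouse 2, and the call was lost for Tgtp1 without mouse 1 (0.866) or mouse 2 (0.0592) and for Gbp2 (0.89) and Iigp1 (0.583) without mouse 1. Irf9 and Rtp4 lost it without either mouse, while Ifi203 and Ifi44l kept it. Ifi44l was called higher (1.62), at 6.63 and 7.15, yet KK/HlJ was number 14 of 29, since several strains had means near the bottom of the scale, down to 2.75 in FVB/NJ.

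Among MHC genes, H2-Ea, which encodes a class II chain that presents peptides to T cells, was at 2.90 and 2.72 in the KK/HlJ mice, at the bottom of the scale. C57BL/6J, BTBR T<+> tf/J, LP/J, SJL/J and C57L/J were about as low, with means of 2.80 to 3.20, while the median strain was at 8.42, so that H2-Ea was called (-4.46, adjusted p = 1.47e-14) without being particular to KK/HlJ. It was 1 of 12 class II genes to be called (8.33%, against 4.96% over all genes). Of 17 class I and antigen processing genes, H2-T24 (-1.28) and H2-T23 (-0.60) fell and H2-Q1, near the bottom of the scale, rose (0.47), with that last call lost without either mouse. H2-T23 fell in 1 of 2 probe sets. The share of class I and antigen processing genes called was 17.6%.

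Markers of other liver cells give the setting of these values. In whole liver, fewer cells of a type and less RNA per cell cannot be told apart. Of 14 hepatocyte genes, 0 were called by limma (2 at an unadjusted p under 0.05), and the median was -0.07. Of 31 macrophage and Kupffer cell genes, the Kupffer cell lectin Clec4f fell (7.25 and 7.53, against 6.83 to 9.73), and the median was 0.00. The share called was 3.23%, against 4.96% over all genes. Of 19 T and NK cell genes, Zap70 fell (-0.96, 5.26% of the list called), while Cd3e and Cd8a differed by -0.24 and -0.20. Of 13 cholangiocyte genes, Cldn7 (1.18) and Cdh1 (1.06) rose (15.4% called). At an unadjusted p under 0.05 in limma, 9 of the 13 cholangiocyte genes differed (69.2%, against 17.1% over all genes). Their defining genes Krt19, at 4.98 and 5.07 (1.06, 0.0659), Krt7 (0.68), Epcam (1.09, 0.171) and Sox9 (0.40) did not pass the test, and the list median was 0.46, number 7 of 29 with C3H/HeJ highest at 1.09. Whether this bears on the rise of Mmp7, Scara5 or the NRF2 genes was not tested. In limma, 0 genes were called in the lists of B cells, neutrophils, stellate cells, endothelial cells, the cell cycle and the circadian clock, where the unadjusted p was under 0.05 for 1 of 12, 1 of 12, 10 of 29, 9 of 21, 5 of 23 and 2 of 17 genes. The shares were 8.33%, 8.33%, 34.5%, 42.9%, 21.7% and 11.8%, against 17.1% over all genes. Neutrophil genes had a median of 0.38 (number 5 of 29) and endothelial genes one of -0.24 (number 24 of 29). The erythroid Alas2 (0.72) and the elastase Cela1 (0.39) rose, while the pancreatic Prss2 and Cela3b, the adipocyte Adipoq and Lep and the muscle Ckm and Acta1 were all near the bottom of the scale, at 2.33 to 3.34. Of this list of 17 genes, 11.8% were called. The calls of the marker genes Clec4f, Cldn7, Cdh1, Alas2 and Cela1 were lost without either KK/HlJ mouse, and that of Zap70 without mouse 1 (0.606).

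In the lists of acute phase (Apcs 0.41, Fgg -0.20), urea cycle and amino acid catabolism (Agxt -0.53, Hpd -0.29, Otc -0.29), unfolded protein and amino acid response (Asns 0.89), immediate early and heat shock (Bag3 0.47, Hsp90aa1 -0.56, Dnaja1 -0.28) and oxidative phosphorylation (Ndufv1 -0.26), between 1 and 3 genes were called. In that order, the shares called were 8.33%, 12.0%, 3.85%, 15.0% and 3.33%, against 4.96% over all genes. None of these calls held without mouse 1, and that of Hsp90aa1 alone held without mouse 2 (0.0356).

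**Figure D4:**
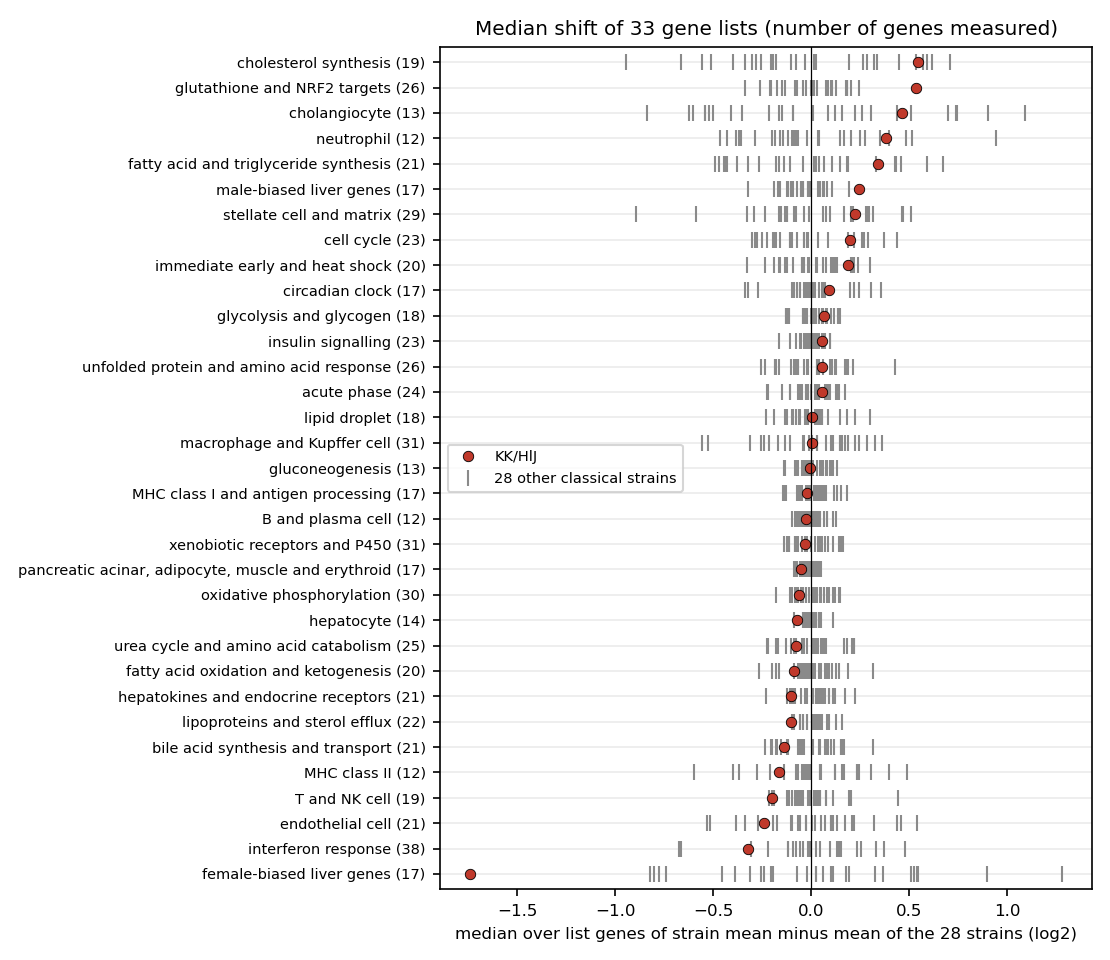
Median over the genes of each of 33 lists of the strain mean minus the mean of the 28 other classical strains, on a log2 scale, with a red point for KK/HlJ and gray ticks for the others. KK/HlJ lies beyond all other strains for the female-biased (-1.74), NRF2 (0.53), male-biased (0.24) and lipoprotein (-0.11) lists. The next strains are at -0.82, 0.24, 0.19 and -0.10 in that order, so that the male-biased and lipoprotein margins are small.

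Some probe sets differed also when the spread was taken between strains. Of the 37 probe sets called in the fit to strain means, 24 carried 1 gene symbol, and they named 23 genes. The lowest adjusted p was that of Lox, a collagen cross-linking oxidase, at 3.67 and 3.89 in the KK/HlJ mice, against strain means of 2.32 to 2.76 (1.06e-08). This was the dimmest of its 3 probe sets, and the brightest, at 6.08 and 6.27, against a mean of 5.64, was not called. Miox, which breaks down inositol, was at 4.31 and 3.86, against 2.77 to 3.22 (1.41e-06), and the protease Ctsh at 10.59 and 10.68, against 11.10 to 11.48 (4.25e-04). A probe set with no gene symbol differed by 5.37, at 8.14 and 8.44, against strain means of 2.33 to 5.05. These genes were picked after their values had been seen. A KK/HlJ sequence variant under the probes could not be looked for here.

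Single strains served as references as well, C57BL/6J, whose genome all mice shared, and BTBR T<+> tf/J, another strain used in studies of insulin resistance. Because the same KK/HlJ mice enter all of these comparisons, their values are given side by side. Against C57BL/6J (2 mice), 1134 of 17097 genes were called, 637 higher (3.73%) and 497 lower (2.91%). Against BTBR T<+> tf/J (3 mice), 1924 were called, 1128 higher (6.60%) and 796 lower (4.66%). Leaving out 1 mouse moved the called probe sets against C57BL/6J between 480 and 1381, beside 2102 with all mice, and against BTBR T<+> tf/J between 1066 and 4553, beside 3864.

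Cyp4a12a was at 9.80 and 9.50 in KK/HlJ, at 3.14 and 3.17 in C57BL/6J and at 3.33, 3.57 and 3.29 in BTBR T<+> tf/J. Akr1c18 and Scara5 were likewise near the bottom of the scale in both reference strains. Gdpd3, a lysophospholipase D, was at 8.07 and 8.14 in KK/HlJ, at 3.89 and 3.98 in C57BL/6J and at 4.18, 3.81 and 3.63 in BTBR T<+> tf/J, although KK/HlJ was number 9 of 29 for this gene. The aspartic protease Ctse differed by reference, since it was at 8.38 and 8.17 in KK/HlJ, at 3.22 and 3.32 in C57BL/6J and at 9.64, 9.71 and 9.70 in BTBR T<+> tf/J. Its KK/HlJ level was called higher than that of C57BL/6J (adjusted p = 4.75e-07) and was not called against BTBR T<+> tf/J (-1.41, adjusted p = 0.224).

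On the low side, Cyp2b13 was at 9.91 and 9.61 in C57BL/6J and at 7.81, 8.68 and 7.72 in BTBR T<+> tf/J, far above both KK/HlJ mice. The KK/HlJ mice were also below all mice of both strains for Sult2a2 (-4.15 and -4.49), Slc22a26 (-4.08 and -4.06), Cux2 (-3.78 and -2.44) and Sult3a1 (-3.07 and -4.47), where the first value is the difference from C57BL/6J and the second that from BTBR T<+> tf/J. Of the female-biased genes, 11 of 17 were called lower than in C57BL/6J and 12 of 17 lower than in BTBR T<+> tf/J. Of the NRF2 and glutathione genes, 17 of 26 were called higher than in C57BL/6J and 1 lower, and 13 were called higher than in BTBR T<+> tf/J and 2 lower.

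Against C57BL/6J, the KK/HlJ mice had lower Lepr (4.78 and 5.04 in KK/HlJ, 8.58 and 7.87 in C57BL/6J, -3.31, adjusted p = 2.28e-06) and lower Mlxipl (-0.63, 0.0468), and higher Fgf21 (1.89, 0.0109). Against BTBR T<+> tf/J, Lepr was lower too (-1.75, 0.00934), while Mlxipl (-0.33, 0.314) and Fgf21 (0.78, 0.348) did not pass the test. Insr (-0.40, 0.0537 against C57BL/6J, and -0.07 against BTBR T<+> tf/J) passed it in neither.

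**Figure D5:**
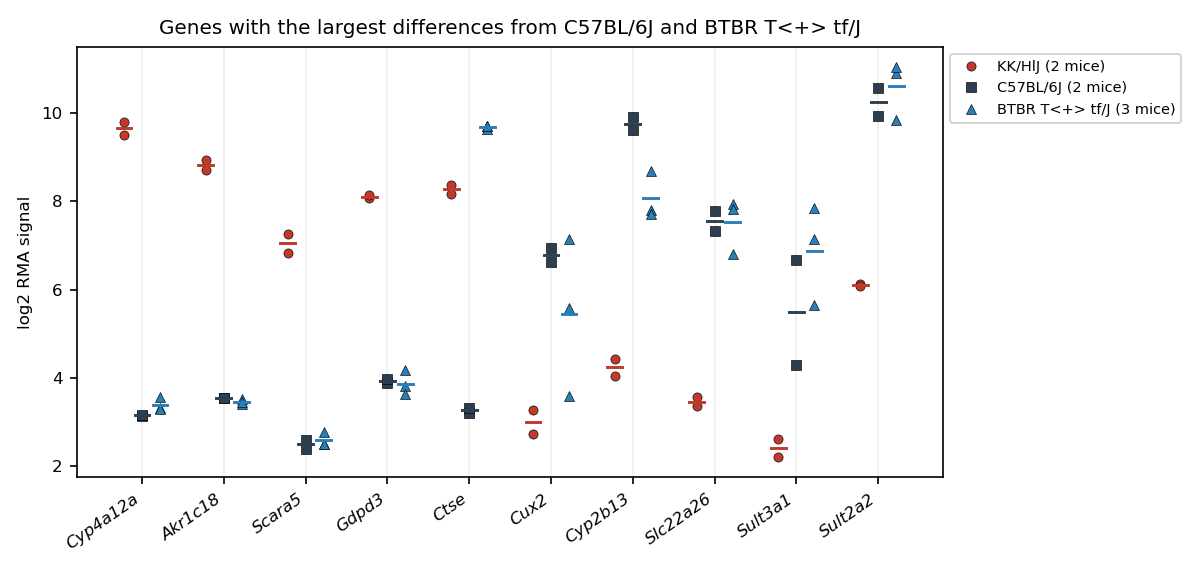
Log2 RMA signal in each KK/HlJ, C57BL/6J and BTBR T<+> tf/J mouse for the genes with the largest called differences from either reference strain, with a line at each strain's mean. The KK/HlJ mice lie above all mice of both strains for Cyp4a12a, Akr1c18, Scara5 and Gdpd3, and between the strains for Ctse.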

How the data were processed

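Liver RNA of 220 female mice was hybridized to Affymetrix HT MG-430 PM arrays, 1 array per mouse. The table that the authors deposited holds 1 log2 value per mouse and probe set, made by robust multi-array averaging (RMA). GCOS and RMA are the tools in the processing notes of the submitters, with versions not given in the sources used here. RMA corrects background and quantile-normalizes arrays, so that low signals are compressed and a factor computed from them is a low estimate. The values ran from 1.90 to 13.94. Of 45141 probe sets, 104 controls were left out. The platform annotation gave 28898 probe sets 1 gene symbol, 551 several and 15588 none, and each of 17097 genes was represented by its brightest probe set, by the mean of the 220 values. The number of arrays limits the precision.

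A mean per maternal strain was fitted to all 220 mice (limma 3.58.1, R 4.3.3, eBayes, 124 residual degrees of freedom), so that the spread comes from the 87 strains with 2 or more mice. The contrasts were KK/HlJ minus the unweighted mean of 28 other classical strain means, minus C57BL/6J, and minus BTBR T<+> tf/J. Tests were two-sided, and p-values were Benjamini-Hochberg adjusted over all 45037 probe sets, with 0.05 as the threshold. The script was tested on simulated data with known changes. Named genes were the 12 largest called rises and 12 largest called falls beyond all strain means, and 15 core genes (11 measured). Up to 4 called members of each of 33 lists were added. So were the 4 largest rises and 4 largest falls against each reference strain. Genes named outside these rules are listed genes, members of the gene families described (such as Gstp3), or said to have been picked afterwards. The members, lists and rules were chosen with earlier results of these data known. Lists are described by counts and medians, with no set test. Alternatives were a fit on strain means, other comparison strains, other filters, normalization and moderation, and leaving out mice. Promoter sequences are from RefSeq, GRCm38.p6.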

Additional observations from a re-analysis of the deposited data

How the results depend on the processing

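The counts moved most in the fit to strain means and when 1 of the 2 KK/HlJ mice was left out. Without 1 of them, the probe sets called against the other classical strains numbered 218 to 706, beside 1649 with both mice, the female-biased genes called lower 4 to 5, beside 9, and the NRF2 and glutathione genes called higher 0 to 9, beside 15. Against C57BL/6J the called probe sets numbered 480 to 1381 without 1 mouse of either strain, beside 2102, and against BTBR T<+> tf/J 1066 to 4553, beside 3864. In the fit to the 29 strain means, 37 probe sets, 2 female-biased genes and 0 NRF2 and glutathione genes were called, since the spread there is between strains. At an unadjusted p under 0.05 in that limma fit, 2319 of 45037 probe sets differed. Over all genes that share was 5.42%, close to the threshold itself. The counts stayed within 1.5 times the main value with all 95 other strains (1459) or only the classical strains with 2 or more mice (1669) as the comparison, with only the classical mice in the fit (1631), above the median signal (1982), after centering (1641) or another quantile normalization (1703), and with trended, robust moderation (1640). Of 82 named genes, 71 were called. Of these, 0 changed direction under any alternative, and the call was lost in 42 without mouse 1, in 34 without mouse 2, in 66 in the fit to strain means, in 18 against all 95 strains and in 6 of 28 with the mean over probe sets. Without the BXD50/RwwJ mouse with low Xist, an alternative chosen after seeing the data, the counts were 1635, 9 and 15, and 2077 and 3860 against the single strains. No paired analysis was possible because replicate numbers were given in accession order and pair no mice.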
